A study of Mus musculus with 2 samples.

Results

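The interferon regulatory factors (IRFs) described here are the 8 genes Irf1, Irf2, Irf3, Irf4, Irf5, Irf7, Irf8 and Irf9, matched by gene symbol, of 54532 genes in the count table. RNA came from 2 tumours of Hepa1-6, a mouse hepatocellular carcinoma line. One tumour grew from cells given a lentivirus with GFP, puromycin resistance and no IRF8 (the vector-labelled tumour), and the other from cells given the same kind of virus with IRF8 (the IRF8-labelled tumour). Both cell populations had been stably transduced and were injected into opposite sides of the same C57BL/6 mouse, so the tumours share their host, and there is 1 library per group. The labels used here do not give the species of the IRF8 insert, its promoter, or the age and sex of the mouse. The whole tumour was extracted, and cancer cells and host cells are both mouse, so their reads were not separated. In such bulk samples fewer cells of a type and less RNA per cell cannot be told apart.

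IRFs are transcription factors that share a DNA-binding domain with conserved tryptophans and recognise GAAA repeats in interferon-stimulated response elements (ISREs). They work in a relay: pathogen sensors activate IRF3, IRF5 and IRF7, which turn on interferon genes, and secreted type I interferons then act through a complex that holds STAT2 and IRF9. Interferon gamma acts through gamma-activated sites (GAS), and IRF1 and IRF8 are among the genes induced that way. IRF4 and IRF8 are largely restricted to blood cells, bind DNA weakly alone and act with partners such as PU.1 and BATF factors. IRF8 is required for the development of monocytes, type 1 conventional dendritic cells and plasmacytoid dendritic cells, and takes part in B cell development.

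The libraries held 20223649 counts (vector-labelled) and 17316607 counts (IRF8-labelled), and 14775 genes were measured, that is, had a mean of at least 1 CPM (count per 1000000 scaled counts). Markers of the hepatoma cells were present in both libraries. Their summed level over 6 genes (Afp, Alb, Krt8, Krt18, Hnf4a and Ttr) was lower in the IRF8-labelled one, at 8630 CPM against 4270 CPM. Afp and Alb make up most of that sum, and Hnf4a was not lower, at 148 CPM in the vector-labelled and 154 CPM in the IRF8-labelled library. Skeletal muscle markers (5 genes) went from 4.41 to 198 CPM, adipocyte markers (4 genes) from 31.0 to 87.0 CPM, and B cell markers (7 genes) from 28.9 to 35.1 CPM. Macrophage markers (9 genes) were at 1949 and 1904 CPM and pan-leukocyte markers (5 genes) at 614 and 600.5 CPM. None of these markers was at 0 in either library. With 1 library per group there is no replicate check, and no p-value was computed: the intervals below cover counting error only and say nothing of the variation between tumours.

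All 8 IRF genes were measured. None was at least 2-fold apart between the libraries, while 2.59% of all measured genes were higher in the IRF8-labelled tumour by 2-fold or more and 2.77% were lower by as much. The 95% counting interval of the log2 ratio (IRF8-labelled over vector-labelled) lay below 0 for Irf8 and Irf1, above 0 for Irf5 and Irf3, and held 0 for the other 4. Of all measured genes 25.8% had an interval below 0 and 23.5% above 0, so 2 of 8 each way is close to the background. The median log2 ratio of the 8 genes was -0.038, and that of all measured genes was -0.0012.

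**Figure D1:**
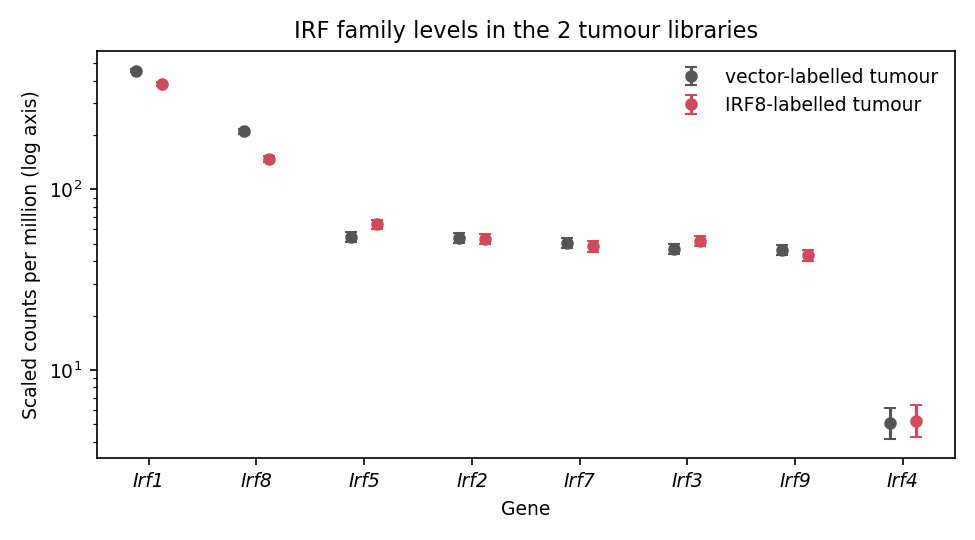
Level of each IRF gene in CPM (log axis) in the vector-labelled and the IRF8-labelled tumour; bars are 95% exact Poisson intervals, with 1 library per group. Irf1 and Irf8 stand above the other genes in both libraries, and Irf4 is near 5.06 and 5.24 CPM.

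Irf8, the gene named on the construct, was lower in the library labelled with it. The gene (ENSMUSG00000041515, mm10, chromosome 8, 120736358 to 120756694, plus strand) was counted 4178 times in the vector-labelled tumour and 2578 in the IRF8-labelled one. Its log2 ratio was -0.51 (95% counting interval -0.58 to -0.44), 1.43-fold lower. The label names overexpression of IRF8 while this count was lower, so every direction here belongs to the libraries as labelled. Whether the 2 libraries were exchanged was not tested, and an exchange would turn every direction given here. The gene count does not separate a mouse Irf8 transgene from the endogenous gene, and reads of an insert from another species would be counted only where they aligned to the mouse gene. Of all measured genes, 17.1% had a ratio larger in size than that of Irf8, in either direction.

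The stretch before the annotated start of Irf8 is shown because it holds the type of element through which interferon gamma is known to act, and those of Irf1 and Irf2 because their windows hold such elements too. Sequences are the 250 bases before the RefSeq start (GRCm38.p6, plus strand, 5′ to 3′), and capitals mark matches to the GAS letters TTCNNNGAA, which read the same on both strands, to the ISRE letters (GAAA, any 2 bases, GAAA) or to the ETS-IRF composite letters (GGAA, any 2 bases, GAAA), both searched on either strand. They lie at chr8:120736108-120736357 for Irf8, chr11:53769764-53770013 for Irf1 and chr8:46739495-46739744 for Irf2.
Irf8: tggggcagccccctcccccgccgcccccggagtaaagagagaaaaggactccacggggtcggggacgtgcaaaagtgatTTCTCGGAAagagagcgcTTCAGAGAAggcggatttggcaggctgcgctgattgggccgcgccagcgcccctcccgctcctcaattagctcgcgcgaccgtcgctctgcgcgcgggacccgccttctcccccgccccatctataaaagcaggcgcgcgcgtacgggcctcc
Irf1: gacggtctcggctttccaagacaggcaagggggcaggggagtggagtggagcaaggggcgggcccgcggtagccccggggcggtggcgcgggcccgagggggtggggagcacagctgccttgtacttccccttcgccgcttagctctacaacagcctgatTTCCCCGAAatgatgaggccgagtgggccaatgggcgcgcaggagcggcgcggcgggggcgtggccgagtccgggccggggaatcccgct
Irf2: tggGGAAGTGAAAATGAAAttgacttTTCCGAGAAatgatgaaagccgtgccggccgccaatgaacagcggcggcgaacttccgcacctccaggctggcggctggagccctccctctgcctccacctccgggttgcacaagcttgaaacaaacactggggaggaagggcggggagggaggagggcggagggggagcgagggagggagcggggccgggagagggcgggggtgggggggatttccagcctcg

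The Irf8 window held 2 GAS matches, beginning 171 and 153 bases before the start, and the Irf1 window held 1, beginning 90 bases before it. In the Irf2 window an ISRE match overlaps a composite match, and a GAS match follows them. Promoter windows (300 bases, from 250 before to 50 after the start) were listed for all 8 genes, 11 windows in all, and the windows of Irf3, Irf4, Irf5, Irf7 and Irf9 held none of the 3 motifs. Among 32851 such windows of mouse genes, 8.30% held a GAS match, 3.44% an ISRE match and 2.72% a composite match. A match is a string of letters and not evidence of binding, and Irf2, whose window held all 3 motifs, had a ratio near 0.

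Irf1, an activator induced by interferon gamma, was the most abundant of the 8 genes and the other one that was lower. It had 9033 counts in the vector-labelled tumour and 6719 in the IRF8-labelled one. Its level was 452.9 CPM (443.6 to 462.3 by a 95% exact Poisson interval) and 382.7 CPM (373.6 to 391.95), and the log2 ratio was -0.24 (-0.29 to -0.20). The level intervals do not overlap, but the difference is small beside the other genes, since 42.6% of measured genes had a ratio larger in size. Irf2, which binds the same elements and is known to antagonise IRF1, had 1070 and 937 counts and a log2 ratio of -0.0074 (-0.14 to 0.12). The ratio of Irf1 to Irf2 counts was 8.44 in the vector-labelled tumour and 7.17 in the IRF8-labelled tumour, a log2 difference of -0.24 (-0.37 to -0.10) that needs no scaling between libraries.

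Irf3, Irf5 and Irf7 relay signals from sensors of nucleic acids and microbial products. Irf5, known for driving inflammatory cytokine genes in myeloid cells, had 1089 counts in the vector-labelled tumour and 1123 in the IRF8-labelled tumour. With the smaller total of the latter, its level was 54.6 CPM (51.4 to 57.9) and 64.0 CPM (60.3 to 67.8), the largest positive ratio of the 8 (log2 0.23, 0.11 to 0.35). Of its 2905 exon bases, 14.1% are shared with exons of Tnpo3 on the opposite strand, and the library kit named in the labels keeps no strand. Tnpo3 itself, an importin, had 2133 and 1740 counts (log2 -0.11, -0.20 to -0.018), so the genes differed in opposite directions.

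Irf3, present in most cell types as an inactive protein until it is phosphorylated, had 932 and 913 counts and a log2 ratio of 0.15 (0.021 to 0.29). The lower end lies near 0, and with DESeq2 size factors the interval held 0 (-0.00091 to 0.27). Irf7, itself induced by interferon and needed for large amounts of type I interferon, had 1010 and 848 counts and a log2 ratio of -0.068 (-0.20 to 0.065). The ratio of Irf7 to Irf3 counts was 1.08 in the vector-labelled tumour and 0.929 in the IRF8-labelled one (log2 -0.22, -0.41 to -0.033).

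Irf9, the DNA-binding part of the interferon-stimulated gene factor ISGF3, had 924 and 758 counts and a log2 ratio of -0.10 (-0.24 to 0.039). Irf4, which acts in lymphocytes, plasma cells and some macrophages and dendritic cells, was the least abundant. It had 101 counts in the vector-labelled tumour and 92 in the IRF8-labelled one, 5.06 CPM (4.12 to 6.15) and 5.24 CPM (4.22 to 6.43). Its interval, from -0.37 to 0.47 on the log2 scale, is the widest of the 8, and these counts allow ratios from 1.30-fold lower to 1.39-fold higher.

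**Figure D2:**
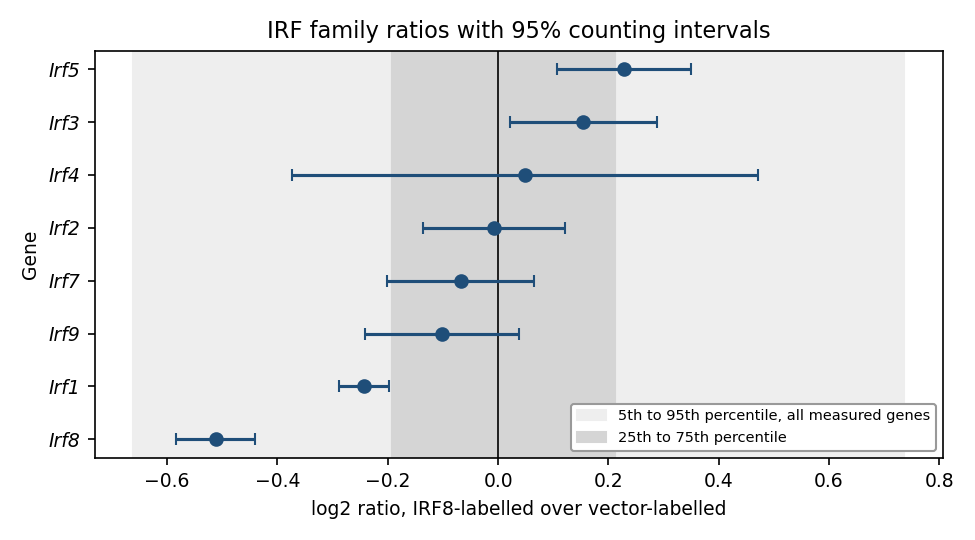
Log2 ratio of each IRF gene, IRF8-labelled over vector-labelled tumour, with 95% counting intervals; the grey bands hold the central part of all measured genes. Irf8 lies at -0.51 and Irf5 at 0.23, and all 8 genes lie within the 5th to 95th percentile band.

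Levels were also compared between the genes, per kilobase of the exon length in the table. In the vector-labelled tumour Irf1 stood at 113.9 CPM per kilobase (111.6 to 116.3), Irf8 at 29.7 (28.8 to 30.6) and Irf5 at 18.8 (17.7 to 19.9). Irf3 at 13.6 (12.7 to 14.5) and Irf7 at 13.4 (12.6 to 14.3) overlapped, and Irf9 at 8.60, Irf2 at 7.25 and Irf4 at 1.03 CPM per kilobase followed with intervals apart. In the IRF8-labelled tumour Irf1 stood at 96.3 CPM per kilobase (93.96 to 98.6), and Irf5 at 22.0 (20.7 to 23.3) and Irf8 at 20.8 (20.02 to 21.6) overlapped. There Irf3 at 15.1 (14.1 to 16.1) and Irf7 at 12.8 (11.9 to 13.7) were apart, and Irf9 at 8.02 (7.46 to 8.61) overlapped with Irf2 at 7.22 (6.76 to 7.69). The exon length counts every annotated exon of a gene, 7055 bases for Irf8, whose longest protein-coding transcript in GENCODE M21 has 2847. Per kilobase of that transcript, a length chosen after the data were seen, Irf8 stood above Irf5 in the IRF8-labelled tumour, at 51.6 against 28.5 CPM per kilobase, and Irf2 stood above Irf9 in both libraries.

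Irf8 and Irf1 together held 72.0% of the 18337 IRF counts in the vector-labelled tumour and 66.6% of the 13968 in the IRF8-labelled tumour. Per kilobase of exon length, Irf8 made up 14.4% (14.0 to 14.8) of the summed level in the first and 11.4% (10.9 to 11.8) in the second. The share of Irf1 was 55.2% (54.5 to 55.9) and 52.5% (51.7 to 53.3), and that of Irf5 9.11% (8.61 to 9.63) and 12.01% (11.4 to 12.7). The intervals of these 3 shares do not overlap between the libraries. With no length correction those of Irf1 do, at 49.3% (48.5 to 49.99) and 48.1% (47.3 to 48.9). Summed over the 6 genes other than Irf8 and Irf1, the counts were 5126 and 4671, a scaled log2 ratio of 0.050 (-0.0075 to 0.11).

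Irf8 was then set against other counts of the same library, which removes the scaling between libraries. Against each of the other 7 IRF genes the ratio was lower in the IRF8-labelled tumour. Per Irf5 count there were 3.84 Irf8 counts in the vector-labelled tumour and 2.30 in the IRF8-labelled tumour, a log2 ratio of ratios of -0.74 (-0.88 to -0.60). Per Irf4 count, from the other gene largely restricted to blood cells, there were 41.4 and 28.0 (-0.56, -0.99 to -0.13). The smallest difference was against Irf1, with 0.463 and 0.384 Irf8 counts per Irf1 count (-0.27, -0.35 to -0.18).

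Irf8 was also lower relative to macrophage, pan-leukocyte, B cell and T cell markers, while relative to monocyte and plasmacytoid dendritic cell markers the call or the sign depended on the genes taken. Per 100 counts of the macrophage markers there were 10.7 Irf8 counts in the vector-labelled tumour and 7.71 in the IRF8-labelled tumour (log2 -0.48, -0.55 to -0.40). Per 100 pan-leukocyte counts there were 34.1 and 24.5 (-0.48, -0.56 to -0.40), so Irf8 differed by more than the sums of these markers did. Single markers moved apart. Of the 9 macrophage markers 3 had intervals below 0 and 2 above, and of the 5 pan-leukocyte markers 2 and 1. All measured genes had 25.8% and 23.5%. Adgre1 was lowest at -0.43 (-0.58 to -0.28), an interval that overlaps that of Irf8, and Coro1a was highest at 0.28 (0.19 to 0.37). Relative to B cell markers the log2 difference was -0.79 (-0.97 to -0.61), and relative to T cell markers it was -0.32 (-0.44 to -0.20).

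The difference was smaller relative to monocyte markers, at -0.14 (-0.25 to -0.020). Of those 5 markers 3 had intervals below 0 and none above, beside 25.8% and 23.5% of all measured genes. Chil3 had 256 and 49 counts, F13a1 318 and 151, and Plac8 1202 and 852, while Ccr2, the receptor that brings monocytes into tissue, had 541 and 500 (log2 0.070, -0.11 to 0.25). Without Plac8, the most abundant of the 5, the interval of Irf8 relative to monocyte markers held 0 (-0.070, -0.22 to 0.078). Relative to type 1 dendritic cell markers the log2 difference was -0.67 (-0.76 to -0.57), and -0.44 (-0.58 to -0.30) without Cadm1, an adhesion gene that other cells also express. Of the 7 genes of that list 1 had an interval below 0 and 1 above, beside the same 25.8% and 23.5%, with a median of -0.070. Clec9a had 150 and 97 counts (log2 -0.44, -0.83 to -0.067) and Xcr1 46 and 31 (-0.37, -1.09 to 0.30), while Batf3 was at 0.15 (-0.11 to 0.42), Itgae at 0.26 (-0.11 to 0.65) and Cadm1 at 0.24 (0.17 to 0.32).

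Relative to plasmacytoid dendritic cell markers the sign depended on the genes. It was -0.74 (-0.82 to -0.66) on the summed list, most of which is Tcf4, and 2.21 (1.88 to 2.56) without Tcf4, where Ly6d makes up most of the rest. Siglech, a marker of these cells in the mouse, had 7 and 4 counts. Relative to plasma cell markers the log2 difference was -0.59 (-0.67 to -0.51), on a sum made up mostly of Xbp1 (5096 and 4661 counts) and Sdc1 (2534 and 2123). In that list Jchain had 93 and 318 counts (log2 1.93, 1.62 to 2.31), Mzb1 8 and 24, and Tnfrsf17 1 and 0. Of its 4 measured genes 2 had intervals above 0 and none below, beside 23.5% and 25.8% of all measured genes. Relative to skeletal muscle and adipocyte markers, the log2 difference of Irf8 was -6.00 (-6.33 to -5.69) and -2.002 (-2.16 to -1.85). Relative to the summed hepatoma markers Irf8 was higher, with 2.43 and 3.44 Irf8 counts per 100 marker counts (log2 0.50, 0.43 to 0.57). Among these markers Hnf4a was itself not lower (0.056, -0.020 to 0.13). The part of these differences in cell content in the ratio of Irf8 was not tested.

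**Figure D3:**
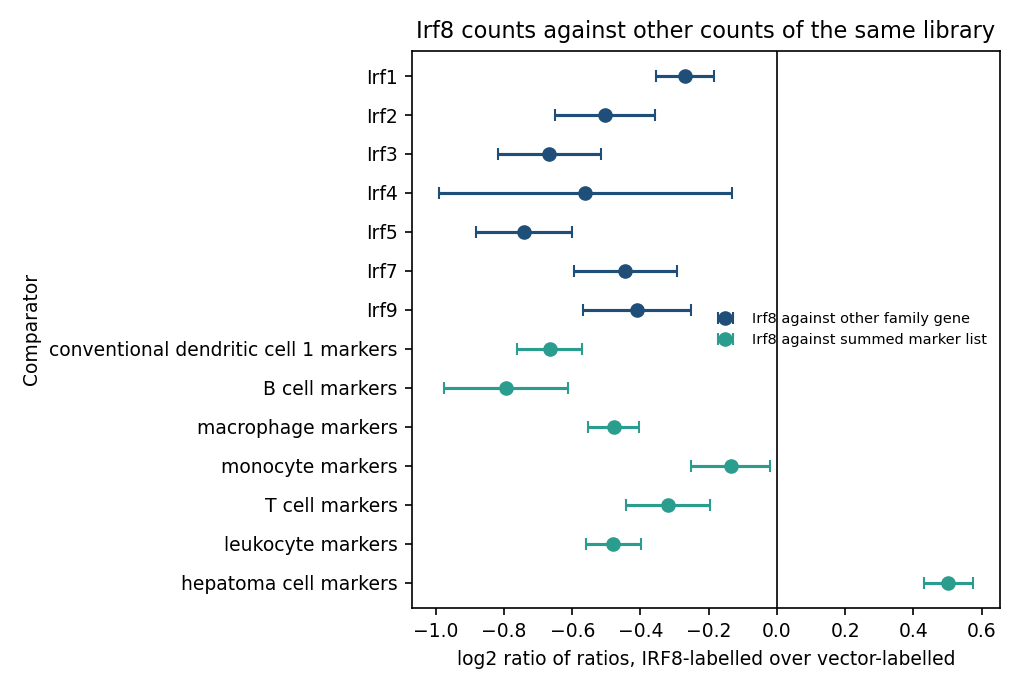
Irf8 counts relative to another IRF gene or to a summed marker list of the same library, as the log2 ratio of that relation in the IRF8-labelled over the vector-labelled tumour, with 95% conditional exact intervals. All comparators plotted lie below 0 except the hepatoma markers at 0.50.

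Of 20 sensors, adaptors and kinases that lead to IRF activation, all measured, 10 had counting intervals below 0 (25.8% of all measured genes did) and 2 above 0 (23.5% did), with a median log2 ratio of -0.17 against -0.0012 over all measured genes. Tmem173, which encodes STING, had 2347 and 1603 counts (-0.37, -0.46 to -0.27). Tbk1, the kinase of IRF3 and IRF7, was at -0.26 (-0.35 to -0.16), and Tlr9, the receptor for unmethylated DNA, had 152 and 95 counts (-0.49, -0.88 to -0.11). The members above 0 were Myd88, the adaptor that links Toll-like receptors to IRF5 and IRF7, at 0.17 (0.015 to 0.33), and Slc15a4, a lysosomal transporter needed for that signalling, at 0.16 (0.016 to 0.30).

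Of 15 interferon receptor and JAK-STAT genes, 8 had intervals below 0, where 25.8% of all measured genes did, and 4 above 0, near the 23.5% of all genes, with a median of -0.11. Stat2, the partner of IRF9 in ISGF3, had 2266 and 1667 (-0.26, -0.35 to -0.17). Irf9 itself was at -0.10, with an interval that held 0. The receptor chain Ifngr2 was at 0.32 (0.22 to 0.41) and Ifngr1 at -0.25 (-0.31 to -0.18). The feedback inhibitor Socs1 was at -0.32 (-0.45 to -0.19) and Socs3 at 0.18 (0.099 to 0.27).

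Interferon transcripts themselves were nearly absent apart from Ifng. Of 16 interferon genes, 15 were at 0 counts in the vector-labelled tumour and 14 in the IRF8-labelled one. A count of 0 was taken to allow up to 3 counts, 0.150 CPM in the vector-labelled library and 0.171 CPM in the IRF8-labelled one. This bound is not the exact Poisson interval used for the levels. Ifnb1, a direct target of IRF3 and IRF7, had 0 and 1 counts. Ifng had 88 counts in the vector-labelled tumour and 35 in the IRF8-labelled tumour (log2 -1.11, -1.75 to -0.57), and was the one measured gene of the list.

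Partner factors of IRF8 and IRF4 had 4 of 14 intervals below 0 and 3 above 0, close to the 25.8% and 23.5% of all measured genes, and a median of -0.092. Spi1, which encodes PU.1, had 1157 and 992 counts (-0.038, -0.16 to 0.086), and Batf3, the factor of type 1 dendritic cells, had 247 and 242 (0.15, -0.11 to 0.42). Batf2, itself inducible by interferon gamma, had 977 and 483 counts (-0.83, -0.99 to -0.67), and Cebpa 1541 and 917 (-0.56, -0.68 to -0.45). Runx1 had 896 and 1433 (0.86, 0.74 to 0.98) and Junb 7763 and 10282 (0.59, 0.55 to 0.63). Of the 3 IRF2 binding proteins, which act as corepressors, Irf2bp1 at 0.22 (0.10 to 0.34) and Irf2bp2 at 0.22 (0.14 to 0.29) had intervals above 0.

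The 10 genes that modify or turn over IRF proteins had a median of -0.068, with 4 intervals below 0 and 2 above, the latter near the 23.5% of all measured genes (25.8% were below). Usp18, a protease that removes ISG15 and dampens interferon receptors, was lowest at -0.62 (-0.75 to -0.49).

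Genes known as IRF8 targets in phagocytes were lower in 7 of 12 measured members by their intervals and higher in 1, where all measured genes had 25.8% and 23.5%, with a median of -0.24. Nos2, inducible nitric oxide synthase, had 1620 and 396 counts (-1.84, -2.01 to -1.69), and Acod1, which makes itaconate, had 383 and 98 (-1.76, -2.12 to -1.46). These were the list's members that were at least 2-fold lower. Cybb, the catalytic subunit of the phagocyte oxidase, was at -0.32 (-0.41 to -0.24), Ctss at -0.37 (-0.41 to -0.33) and Ciita at -0.39 (-0.49 to -0.29). Cst3, a classic dendritic cell target, was higher at 0.26 (0.22 to 0.31), and Cd74 at -0.013 (-0.030 to 0.0052) had an interval that held 0. Il12b had 18 and 9 counts and Il12a 1 and 1, too few to place.

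IRF1 targets were lower in 10 of 12 measured members by their intervals and higher in none, beside 25.8% and 23.5% of all measured genes, with a median of -0.32. The list shares Nos2, Ciita and Il12b with the previous one, and Socs1 with the interferon receptor and JAK-STAT genes. Tlr9 is likewise counted both among the IRF8 targets and among the sensors. Gbp2, a guanylate binding protein, had 20747 and 11219 counts (-0.70, -0.74 to -0.67), Tap1, the peptide transporter, 8154 and 5502 (-0.38, -0.43 to -0.33), and Psmb9, an immunoproteasome subunit, 3698 and 2556 (-0.35, -0.42 to -0.28). The exceptions were Casp1 at 0.033 (-0.11 to 0.17) and Il15 at -0.24 (-0.54 to 0.056). Macrophage markers as a list had a median of -0.047, with 3 of 9 intervals below 0 and 2 above, and T cell markers -0.23 with 3 of 7 below 0 and none above, beside the same 25.8% and 23.5%.

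Targets of ISGF3 had log2 ratios from -0.71 to 0.28. Of 17 genes, 8 had intervals below 0 and none above 0 (25.8% and 23.5% of all measured genes), and the median of -0.012 was close to that of all measured genes. Oasl1 had 1570 and 845 counts (-0.71, -0.83 to -0.59), Rsad2 247 and 153 (-0.50, -0.81 to -0.21) and Ifit2 832 and 563 (-0.38, -0.54 to -0.22). Usp18, counted above among the genes that modify IRF proteins, is also in this list, at -0.62 (-0.75 to -0.49). The 8 also include Oasl2 (2909 and 2392 counts, -0.098, -0.18 to -0.020) and Bst2 (4568 and 3769, -0.093, -0.16 to -0.031), whose ratios were near 0. Ifit1 had 183 and 196 counts (0.28, -0.015 to 0.58), Ifit3 215 and 217 (0.20, -0.081 to 0.48), Oas2 309 and 318 (0.22, -0.0049 to 0.46), Isg15 440 and 412 (0.089, -0.11 to 0.29) and Mx1 407 and 359 (0.0030, -0.21 to 0.21). Members of one gene family differed, with Ifit2 below Ifit1 and Ifit3, and Oasl1 below Oas2.

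**Figure D4:**
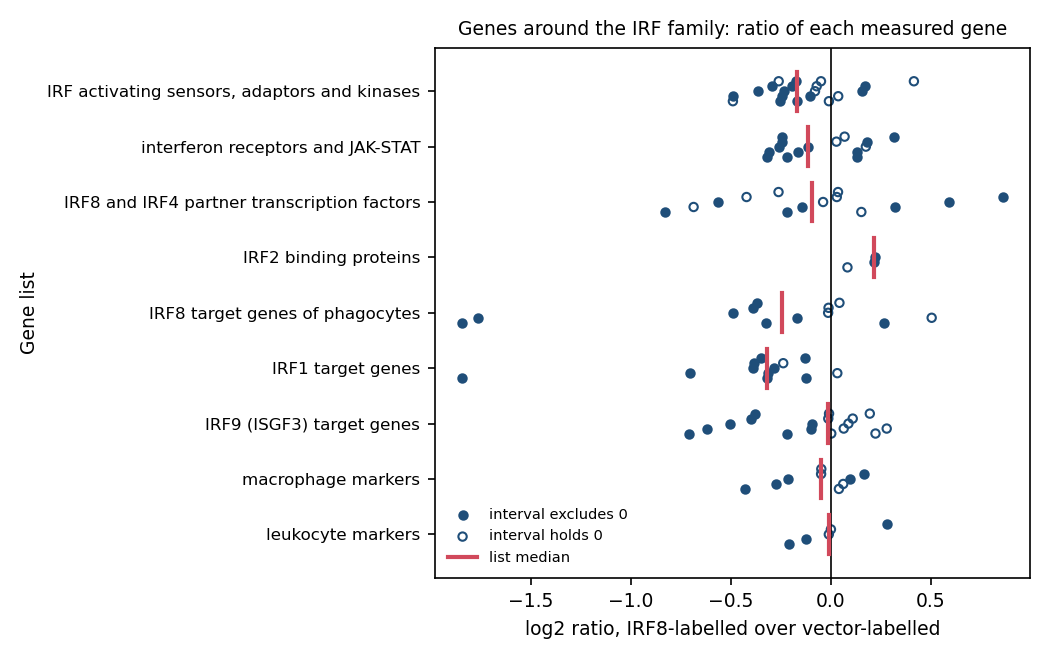
Log2 ratio of each measured gene, IRF8-labelled over vector-labelled tumour, for lists of genes around the IRF family and 2 cell marker lists; filled points have 95% counting intervals that exclude 0, open points do not, and red bars are list medians. IRF1 targets have the lowest median of the lists plotted, -0.32, and ISGF3 targets centre near 0 at -0.012.

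ISRE matches are shown for targets from both lists, as 30 bases on the strand of the gene, each with a match in capitals (GRCm38.p6, RefSeq windows). In the Isg15 stretch the match in capitals begins 72 bases before the start. It is overlapped by matches left in lower case that begin 78 and 66 bases before the start. The stretches show the same GAAA repeat, or its reverse complement, in a gene that was lower (Gbp2), one of the lower ISGF3 targets (Rsad2) and ones whose interval held 0 (Isg15, Ifit1, Ifit3). They lie at chr3:142620594-142620623 on the plus strand (Gbp2), chr12:26456553-26456582 on the minus strand (Rsad2), chr4:156200871-156200900 on the minus strand (Isg15), chr19:34640775-34640804 on the plus strand (Ifit1) and chr19:34583363-34583392 on the plus strand (Ifit3).
Gbp2: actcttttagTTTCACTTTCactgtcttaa
Rsad2: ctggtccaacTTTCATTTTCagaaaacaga
Isg15: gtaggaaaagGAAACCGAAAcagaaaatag
Ifit1: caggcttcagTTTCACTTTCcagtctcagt
Ifit3: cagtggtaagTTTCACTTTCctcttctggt

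Gbp2, Ifit1 and Ifit3 carry the same 10 letters in the match shown in capitals, and their log2 ratios were -0.70, 0.28 and 0.20. The windows of Ifit1 and Ifit3 also held a further ISRE match, TTTCAGTTTC, beginning 85 and 122 bases before the start. Of the 13 ISGF3 targets with a listed window, 8 held an ISRE match, and of the 8 IRF1 targets with one, 2 did (Gbp2 and Socs1). Across the 10700 measured genes with a window, 26.7% had a counting interval below 0 and 23.7% above 0, with a median log2 ratio of -0.0020. Among the 426 with an ISRE match 35.7% had an interval below 0 and 18.8% above 0, with a median of -0.056. Among the 900 with a GAS match the shares were 27.1% and 24.2% and the median was -0.0022, and among the 314 with the composite match they were 24.8% and 21.7% with a median of -0.014.

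Genes that overlap or lie next to the IRF genes did not share one direction. No exon of another gene shared bases with an exon of Irf8, Irf2 or Irf4 in GENCODE M21. The 7 measured genes that start within 500 kb of Irf8 had a median log2 ratio of 0.33, from -0.45 to 0.98, and the nearest, Emc8 and Cox4i1, were at -0.20 (-0.36 to -0.035) and -0.17 (-0.23 to -0.12). The 17 around Irf1 had a median of 0.076, with Rad50 at 0.089 (-0.030 to 0.21). Bcl2l12, which shares 2.56% of the exon bases of Irf3 on the opposite strand, had 188 and 201 counts (0.28, -0.014 to 0.58). Gm16675, which starts 0.217 kb from Irf2, had 101 and 48 counts (-0.86, -1.42 to -0.38), while Irf2 did not differ beyond its interval. Kcp, 18.7 kb from Irf5, had 106 and 177 counts (0.91, 0.57 to 1.28).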

How the data were processed

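The authors deposited 1 table of raw, unscaled counts for the 2 libraries, with symbols, coordinates and exon lengths. Alignment tools named in the submitters' processing notes are HISAT2 2.0.5 and, for counting, featureCounts 1.5.0-p3, on mm10; the annotation release, the strand setting and the treatment of multi-mapped reads are not given in the sources used here. Input was 3 μg RNA per library, per the labels' protocols. All 8 genes have the same start and end in GENCODE M21.

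Scaling used TMM in edgeR 4.0.16 (R 4.3.3). Log2 ratios carry a prior count of 2 as in edgeR's log CPM. Intervals at 95% are Clopper-Pearson for the split of a gene's counts, exact Poisson for levels, binomial for shares (converted to lengths with the other genes held as measured) and conditional exact for ratios of ratios (scipy 1.17.1). They cover counting error only. They treat each count as independent although PCR copies were not marked, so they can be too narrow even for that error. With 1 library per group no count test was run, and gene lists are given by counts and medians. The steps were run on simulated libraries drawn with counting error alone, which cannot show how they behave with variation between tumours. Named genes are the 8 members, measured neighbours within 100 kb, up to 4 genes per list with the largest ratios, and genes fixed by name; other list members and genes in promoter comparisons were chosen after their values were seen. The members, lists and comparisons were chosen with earlier results of these data known. Alternatives were other scalings (DESeq2 1.42.0 size factors among them), prior counts, filters, thinning and lengths. A few genes that this rule names are not reported here.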

Additional observations from a re-analysis of the deposited data

How the results depend on the processing

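Across 9 settings the log2 ratio of Irf8 ran from -0.53 to -0.47, of Irf1 from -0.26 to -0.20, of Irf5 from 0.21 to 0.27 and of Irf3 from 0.13 to 0.19, each within its counting interval; the call on Irf3 was lost with DESeq2 size factors. Irf2 and Irf4, whose intervals held 0 throughout, changed sign between settings (-0.029 to 0.032 and -0.062 to 0.087). Without a filter 814 genes were at least 2-fold higher and 719 lower, and among genes averaging 5 CPM or more 119 and 179. The cause was not tested for the values that follow. Irf8 relative to the list median, in place of summed counts, was at -0.44 for type 1 dendritic cells, 1.10 for plasmacytoid dendritic cells (a reversal), -1.25 for B cells, 0.37 for hepatoma cells and -3.83 for adipocytes. Without the most abundant list member it was at -0.44 for type 1 dendritic cells, 2.21 for plasmacytoid dendritic cells (a reversal), -0.56 for macrophages, -6.71 for skeletal muscle and -4.49 for adipocytes.

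Shares in the IRF counts with no length correction were, in the vector-labelled tumour, 49.3% for Irf1, 5.84% for Irf2, 5.08% for Irf3, 5.94% for Irf5, 5.51% for Irf7, 22.8% for Irf8 and 5.04% for Irf9, and in the IRF8-labelled tumour 48.1%, 6.71%, 6.54%, 8.04%, 6.07%, 18.5% and 5.43% in that order. With the longest protein-coding transcript as length, chosen after the data were seen, they were in the vector-labelled tumour 53.8% for Irf1, 5.46% for Irf2, 5.84% for Irf3, 0.270% for Irf4, 6.19% for Irf5, 5.75% for Irf7 and 18.7% for Irf8, and in the IRF8-labelled tumour 6.22% for Irf2, 7.45% for Irf3, 0.320% for Irf4, 8.31% for Irf5, 6.29% for Irf7 and 15.0% for Irf8. These differ because the lengths differ. No paired analysis was possible because each group has 1 library and no test was run; for the same reason no library could be left out.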
